A study of Mus musculus with 49 samples.

Results

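The 10 genes Tcf4, Pou2f2, Cbfa2t3, Spib, Siglech, Bst2, Runx2, Irf7, Bcl11a and Ly6d were followed through normal mouse haematopoiesis and through leukaemias driven by the MLL-AF9 fusion oncogene. They were 10 of the 38253 genes of the deposited expression table, of which 33068 had a symbol in the annotation, and each symbol matched 1 row. The list was drawn up knowing that Tcf4, Pou2f2 and Cbfa2t3 were low in leukaemias started in short-term haematopoietic stem cells, and Tcf4 and Cbfa2t3 also stand on a list that the study chose from these same samples. The levels in that leukaemia are therefore a description with no test, and tests were kept for the other leukaemias and for the normal cells.

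RNA was sequenced from 49 samples of wild-type female C57BL/6J mice, which the study used at 6 to 12 weeks of age. Leukaemias were taken later, when recipients fell ill, and by the paper that time differed between origins. Age at sampling therefore differed between groups. The 30 normal samples, each sorted by surface markers from lineage-depleted bone marrow, were 5 of LT-HSCs and 5 of ST-HSCs (long-term and short-term haematopoietic stem cells), 6 of MPPs (the multipotent progenitors), 5 of CMPs (the common progenitors of the myeloid lineages), 5 of GMPs (progenitors of granulocytes and macrophages) and 4 of MEPs (progenitors of megakaryocytes and erythroid cells). The 19 leukaemias arose from ST-HSCs (STHSC:MA9, n = 3), MPPs (MPP:MA9, n = 6), CMPs (CMP:MA9, n = 4) and GMPs (GMP:MA9, n = 6) that had been transduced with a retrovirus carrying MLL-AF9 and GFP and transplanted into sublethally irradiated mice. Bulk GFP+ cells were sorted from the spleens of the recipients, so the leukaemias also differed from the normal samples in tissue. By the study's methods the cells were transplanted straight after transduction and each sample came from its own mouse. The work was done in replicate experiments that the labels do not tell apart. The spread behind the p-values below therefore mixes differences between mice with those between experiments.

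Plasmacytoid dendritic cells (pDCs) are the blood cells that release large amounts of type I interferon when endosomal Toll-like receptors meet viral nucleic acid. Tcf4 encodes E2-2, a basic helix-loop-helix E protein that binds E-box DNA and is required for pDC identity. The ETO family corepressor Cbfa2t3 partners E proteins, the ETS factor Spib, the runt factor Runx2 and the zinc finger factor Bcl11a act in pDC development, Siglech and Bst2 mark the pDC surface, and Irf7 switches on interferon genes. Pou2f2 encodes the octamer-binding factor Oct-2 and Ly6d a surface protein of lymphoid progenitors.

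All values are FPKM, an estimated read count scaled by transcript length and by library size, and changes are differences of log2(FPKM + 1), which understate the change of low genes. Relative depth, recovered from the steps between low values, ran from 0.488 to 1.54 over the samples, and the STHSC:MA9 samples lay at 0.562, 0.596 and 0.852. The 16 leukaemias of MPP, CMP and GMP origin ran from 0.817 to 1.39. The part of depth in the low values of STHSC:MA9 was not tested. The normal libraries LT-HSC 4 and 5, ST-HSC 4 and 5 and MEP 3 and 4 stood apart. Their summed B cell markers were 43.7 to 347.1 FPKM, and the other normal samples had 17.5 to 42.3, with ST-HSC 5 (43.7) close to MPP 3 (42.3). Granulocyte and erythroid sums were 69827 and 79870 in LT-HSC 4, 28536 and 42251 in LT-HSC 5, 41654 and 43088 in ST-HSC 4 and 10771 and 7033 in ST-HSC 5. They were 50.2 to 155 and 138 to 1548 in LT-HSC 1 to 3, and 569 to 2768 and 112 to 6520 in ST-HSC 1 to 3. MEP 3 had 48.9 and 636, and MEP 4 had 3323 and 3378. The highest Spib, Siglech and Ly6d values of the normal samples were all in LT-HSC 4. Results on normal cells are given without the libraries that stood apart where they changed.

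Most of the pDC markers were at or near 0 in the leukaemias. Of the 8 markers of this cell type, Havcr1 was listed at 0 in 13 of the 19 leukaemias, Klk1 in 12, Pacsin1 in 10 and Cox6a2 in 9. Siglech reached 1 FPKM in 6 of the 19, and Ccr9 ran from 0.35 to 1.23. Klra17, of a natural killer receptor family, was above 0 in all 19 leukaemias, at 0.06 to 17.9 with 7 at 1 FPKM or more, and in the 30 normal samples it was at 0 in 17 and at 1 FPKM or more in 4. Lair1, an inhibitory receptor shared by many leukocytes, carried most of the summed level with 34.9 to 88.1 FPKM. The 10 genes are for that reason named as a list built around Tcf4, and in bulk RNA fewer cells of a type and less RNA per cell cannot be told apart.

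Tcf4 lay on chromosome 18. In the mm9 build (NCBIM37), Pou2f2 lay on the minus strand at chr7:25877472-25917507, Cbfa2t3 on the minus strand at chr8:125152639-125223009, Siglech on the plus strand at chr7:63023548-63034295 and Bcl11a on the plus strand at chr11:23978056-24074123. Chromosome 7 held 4 of the 10 genes. Reads of Runx2 could be split with a second Runx2 record, since 33.4% of the 31-base windows of its transcripts also occurred in another gene. Exons of Cbfa2t3, Irf7, Bcl11a and Runx2 overlapped a gene on the opposite strand (Gm10612, Phrf1, 4930538E20Rik and Gm10497). The strand used in counting is not given in the sources used here.

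The question set by the design was how these genes depended on the cell of origin. In STHSC:MA9 3 of the 10 genes, Tcf4, Pou2f2 and Cbfa2t3, lay below all 16 other leukaemias, and the other 7 overlapped them. Over all 12128 genes that passed the filter on low values, 1.08% lay below all 16, and nothing is read from the members' count because the same contrast helped to choose them. Of the 10 genes 8 passed that filter, and Spib and Ly6d did not. Differences are between the mean log2 value of STHSC:MA9 and the mean of the 3 other origins' means. The median difference of the 8 members that passed the filter was -0.94 on the log2 scale and that of all genes was -0.04. Nothing is read from this gap either, because the same contrast helped to choose the members.

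Tcf4 read 16.5, 9.03 and 8.67 FPKM in the STHSC:MA9 samples. It read 30.9, 70.7, 51.0, 243.9, 19.5 and 40.6 in MPP:MA9, 71.6, 71.0, 32.3 and 27.6 in CMP:MA9, and 66.2, 177.9, 194.3, 50.4, 245.0 and 50.3 in GMP:MA9. Every STHSC:MA9 sample was thus lower than the lowest other leukaemia, MPP:MA9 5, and 2 of the 3 were lower than the lowest normal sample, a GMP library at 15.4. The level was 11.4 ± 4.41 FPKM (SD, n = 3) in STHSC:MA9 and 90.2 ± 77.8 (n = 16) over the others, and the difference from the mean of the 3 origins was -2.44 on the log2 scale. Within the MPP and GMP origins single leukaemias differed by several fold, so the spread among the 16 was itself wide.

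Pou2f2 read 6.25, 5.34 and 4.01 FPKM in STHSC:MA9 and 7.73 to 34.9 in the other 16 leukaemias (medians 25.8 in MPP:MA9, 20.8 in CMP:MA9 and 14.5 in GMP:MA9). The lowest of the 16 was GMP:MA9 1, and the difference was -1.75. Cbfa2t3 read 7.16, 10.3 and 8.06 in STHSC:MA9. In GMP:MA9 it read 10.4, 33.2, 30.7, 15.5, 30.2 and 20.8, and over all 16 leukaemias it ran to 43.8, for a difference of -1.29. The gap between the highest STHSC:MA9 sample and GMP:MA9 1 was narrow, and with scaling by median ratios or with a correction for GC content and length Cbfa2t3 overlapped the 16, leaving 2 members below. Without STHSC:MA9 2 the count was 4, with Runx2 added.

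Bcl11a, whose difference was -1.05, read 0.22, 1.22 and 0.89 FPKM in STHSC:MA9, and 6 of the 16 other leukaemias were below its highest value. Irf7 differed by -0.77, Runx2 by -0.50 and Bst2 by -0.34, and each overlapped the 16. Siglech was listed at 0, 0.51 and 0.14 in STHSC:MA9 and Spib at 0, 0 and 0.03. Ly6d was listed at 0 in all 3, but so it was in 11 of the 16 others.

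Normal ST-HSCs, the cells in which STHSC:MA9 began, carried Tcf4 at 37.5, 45.4, 37.1, 31.6 and 39.9 FPKM and Cbfa2t3 at 24.0, 21.3, 29.9, 26.0 and 30.9. Both genes were lower in every STHSC:MA9 sample than in every ST-HSC sample. Pou2f2 ran from 1.70 to 4.47 in ST-HSC and overlapped the leukaemia. Runx2 read 41.1, 63.5 and 51.8 in STHSC:MA9 and 27.5 to 51.7 in ST-HSC.

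**Figure D1:**
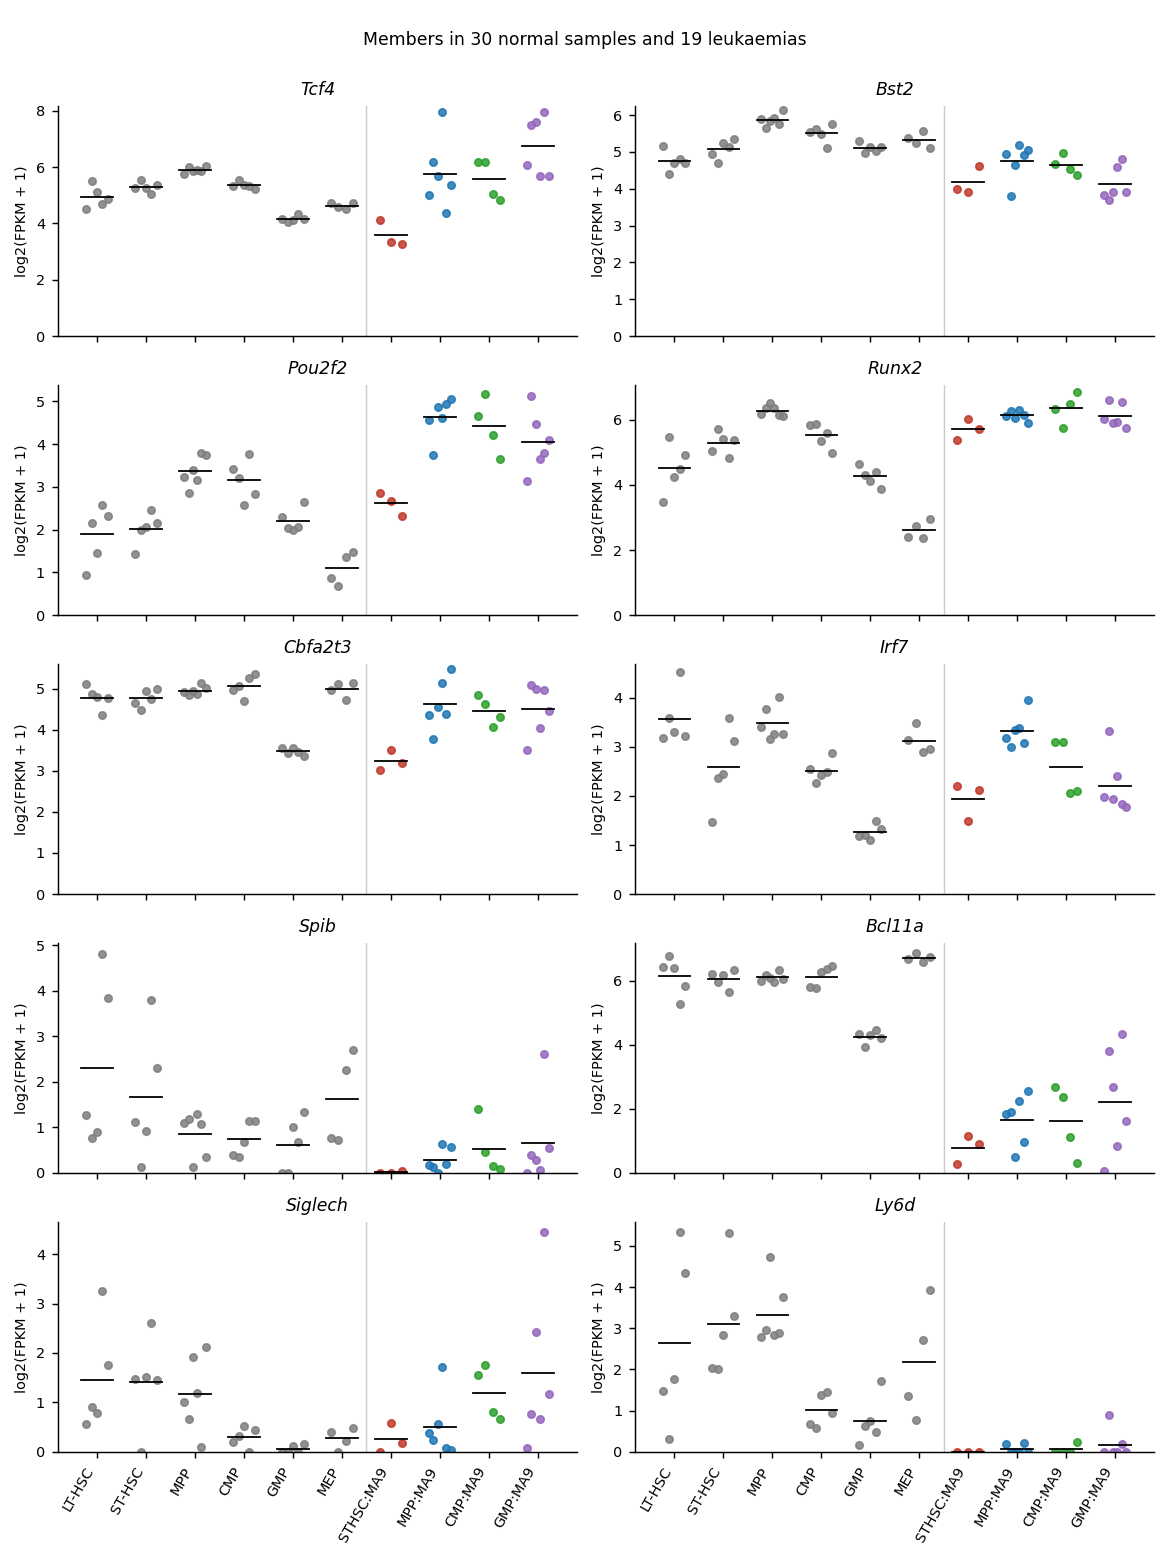
Level of the 10 genes as log2(FPKM + 1) (vertical axes) in every sample, with 1 point per sample and a line at the group mean, for the 6 normal groups and the 4 leukaemia groups. Tcf4, Pou2f2 and Cbfa2t3 are lower in the 3 STHSC:MA9 samples than in all 16 other leukaemias, while Bcl11a is low in leukaemias of every origin.

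Other cell type markers moved with STHSC:MA9. The summed classical dendritic cell markers were 18.8, 13.2 and 7.99 FPKM in STHSC:MA9 and 18.4 to 161.5 in the 16 others, carried mainly by Cd209a, a C-type lectin, and Flt3, the receptor for the dendritic growth factor FLT3 ligand. The summed granulocyte markers were 18495, 20496 and 47323 in STHSC:MA9 and spanned 958 to 51142 in the others. The median difference was -1.53 for the classical dendritic list and 2.06 for the granulocyte list, and their part in the Tcf4 result was not tested. The B cell factor gene Pax5 was listed at 0 in all 19 leukaemias.

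Of the related lists, 1 of 18 further pDC regulators that passed the filter lay below all 16: Ikzf3, a zinc finger factor of lymphoid cells, with a mean of 0.47 ± 0.11 FPKM in STHSC:MA9 (n = 3). None of 15 pDC surface and effector genes did so (median -0.67), and none of the 13 E protein, ETO and ID genes (median -0.32). The other E proteins overlapped the 16 leukaemias. Tcf3, which encodes E2A, averaged 7.51 ± 0.65 in STHSC:MA9, 14.4 ± 3.28 in MPP:MA9, 9.998 ± 0.627 in CMP:MA9 and 10.3 ± 2.97 in GMP:MA9. Tcf12, which encodes HEB, averaged 25.6 ± 9.02, 18.4 ± 5.87, 23.3 ± 4.57 and 27.1 ± 9.07. The pathway from endosomal Toll-like receptors to interferon had a median of -0.39 over 19 genes, the FLT3 and cytokine receptor list -0.38 over 11, the members' family relatives -0.53 over 26 and the interferon-induced list 0.33 over 12, none with a gene below all 16. Among 9 MHC class II genes the median was -1.27 and 1, H2-Eb1, lay below all 16.

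Ordered by mean FPKM over the 10 groups, Tcf4 ran from GMP:MA9 (130.7 ± 85.3, SD) through MPP:MA9 (76.1 ± 84.1), MPP (58.8 ± 4.37), CMP:MA9 (50.6 ± 23.9), CMP (40.0 ± 3.48), ST-HSC, LT-HSC and MEP to GMP (17.0 ± 1.41) and STHSC:MA9. The only neighbours in this order whose samples did not overlap were MEP and GMP. Cbfa2t3 had 1 such break, between CMP:MA9 (21.5) and GMP (10.1), with STHSC:MA9 last at 8.52. Bcl11a broke between ST-HSC (66.5) and GMP (18.2), Runx2 between GMP (18.5) and MEP (5.19), and Irf7 between STHSC:MA9 (2.92) and GMP (1.40). The other 5 genes, Pou2f2, Spib, Siglech, Bst2 and Ly6d, had no break. Of all 12666 genes averaging 1 FPKM or more over the samples, 31% had at least 1 break.

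The 3 other leukaemia origins were compared with each other. The list was partly chosen by low values of Tcf4, Pou2f2 and Cbfa2t3 in STHSC:MA9 against these same 3 origins. The study's list, which holds Tcf4 and Cbfa2t3, was selected on differences between leukaemia origins, these 3 included. The comparisons among the 3 are therefore not independent of the choice of members. A gene was called when its adjusted p was under 0.05 and its change above 1 on the log2 scale in either direction. MPP:MA9 against CMP:MA9 called none of the 8 members tested (0.115% of all genes were called), and CMP:MA9 against GMP:MA9 called none of 8 (0.206% of all genes). MPP:MA9 against GMP:MA9 called 1 of 8, Irf7, against 2.23% of all genes. Irf7 read 8.09, 7.02, 9.21, 9.43, 7.52 and 14.5 FPKM in MPP:MA9 and 2.97, 9.04, 2.81, 4.29, 2.56 and 2.43 in GMP:MA9, so that GMP:MA9 2 lay within the MPP:MA9 range. Its change was 1.12 (SE 0.27, adjusted p = 0.00818). This call was lost without MPP:MA9 6 (0.99) and under the GC and length correction (0.77, adjusted p = 0.128).

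Tcf4 itself was lower in MPP:MA9 than in GMP:MA9 by -0.99 (SE 0.52, adjusted p = 0.208) and in CMP:MA9 than in GMP:MA9 by -1.18 (SE 0.58, adjusted p = 0.388), neither past the threshold. Leaving out MPP:MA9 4, the MPP leukaemia at 243.9 FPKM, brought the first to -1.43 and past it (adjusted p = 0.0426). Among related genes MPP:MA9 exceeded GMP:MA9 in Id1, an inhibitor of E proteins, by 1.12 and in Sfpi1, which encodes the myeloid factor PU.1, by 1.10. CMP:MA9 likewise exceeded GMP:MA9 in Id1, by 1.30. None of 15 pDC surface genes, 19 Toll-like receptor to interferon genes, 12 interferon-induced genes, 11 cytokine receptor genes or 9 MHC class II genes was called in these 3 comparisons.

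Against its own normal cell, each leukaemia was compared with the population in which it began. As leukaemia cells came from spleen and normal cells from bone marrow, effects of tissue and of transformation cannot be told apart here. Bcl11a, known as a repressor of fetal globin, fell in all 3 origins tested and Pou2f2 rose in all 3. Tcf4, Siglech, Runx2 and Cbfa2t3 passed the test for a rise in GMP:MA9, and Ly6d and Bst2 that for a fall in MPP:MA9. The test of whether the change differed among origins called 6 of the 10 genes, where it called 31.6% of all genes. Such a difference can lie in the normal cells as well as in the leukaemias.

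Bcl11a read 61.1 to 80.3 FPKM in MPP and 53.3 to 87.2 in CMP. It read 2.56, 2.76, 0.40, 3.76, 0.94 and 4.90 in MPP:MA9 and 5.44, 4.17, 1.16 and 0.24 in CMP:MA9, clear of the normal samples. In GMP it read 14.4 to 21.0, and in GMP:MA9 0.05, 13.1, 5.37, 0.78, 19.3 and 2.09, where GMP:MA9 5 overlapped the normal range. The fall was -4.44 for MPP (SE 0.46, adjusted p = 1.7e-10), -4.51 for CMP (SE 0.53, adjusted p = 5.4e-09) and -2.03 for GMP (SE 0.48, adjusted p = 4.9e-04). In 18 of the 19 leukaemias Bcl11a was below every normal sample.

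Pou2f2 rose by 1.27 from MPP (SE 0.27, adjusted p = 9.2e-05), 1.26 from CMP (SE 0.31, adjusted p = 6.8e-04) and 1.83 from GMP (SE 0.28, adjusted p = 9.8e-07). Its samples did not overlap in the GMP comparison, with 2.97 to 5.22 FPKM in GMP and 7.73 to 33.7 in GMP:MA9. They overlapped for the MPP and CMP origins, where MPP ran to 12.9 and CMP to 12.6. The rise did not differ detectably among origins (adjusted p = 0.393).

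Tcf4 read 17.1, 15.4, 16.4, 19.2 and 17.0 FPKM in GMP, below every GMP:MA9 sample, and rose by 2.58 (SE 0.40, adjusted p = 1.3e-06). From MPP the change was -0.14 (SE 0.38, adjusted p = 0.757) and from CMP 0.21 (SE 0.44, adjusted p = 0.706), with overlapping samples in both. The difference among origins gave an adjusted p of 3.88e-04. In 8 of the 19 leukaemias Tcf4 exceeded its highest normal value, 65.3 FPKM in MPP 6.

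Siglech was listed in GMP at 0, 0, 0.08, 0 and 0.11 FPKM and in GMP:MA9 at 0.06, 0.71, 4.40, 0.58, 20.6 and 1.24, a rise of 1.54 (SE 0.49, adjusted p = 0.0069). The call rested on GMP:MA9 5. Without that sample Siglech fell below the filter on low values, and in a fit with no filter its change was 1.54 with the sample (adjusted p = 0.0139) and 0.97 without it (adjusted p = 0.0570). It was also lost with a spread estimated from these groups only (adjusted p = 0.0507). Its difference among origins (adjusted p = 0.0272) was lost without MPP 3 or MPP 6 (adjusted p = 0.0536 and 0.0558). Runx2 read 13.6 to 23.8 FPKM in GMP and 52.3 to 96.8 in GMP:MA9, a rise of 1.87 (SE 0.18, adjusted p = 1.6e-10), and gave the lowest p of the members for a difference among origins (adjusted p = 4.95e-07). For Runx2 the change from CMP was 0.84, under the fold threshold (1.04 and called without CMP:MA9 2).

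Cbfa2t3 rose by 1.04 from GMP (SE 0.23, adjusted p = 2.0e-04), just past the fold threshold. It fell short without GMP:MA9 2, 3 or 5 (0.92, 0.94 and 0.95) and under the GC and length correction (0.82). Bst2, the interferon-induced tetherin, fell by -1.11 from MPP (SE 0.19, adjusted p = 3.1e-06), or -0.92 and not called without MPP:MA9 2. From GMP Bst2 changed by -0.99 and Irf7 by 0.95, each of which passed the fold threshold when any of 4 single samples was left out (-1.12 and 1.04 at the most). For Bst2 these samples were GMP 2, GMP 4, GMP:MA9 4 and GMP:MA9 5, and for Irf7 GMP 4, GMP:MA9 3, GMP:MA9 5 and GMP:MA9 6.

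Ly6d read 5.85, 6.80, 25.3, 6.14, 6.35 and 12.6 FPKM in MPP and 0.14, 0, 0, 0, 0.17 and 0 in MPP:MA9. The groups were far apart and the change was -3.25 (SE 0.36, adjusted p = 7.2e-10). In CMP, where Ly6d was at most 1.74 FPKM, the change was -0.95, and it was called without CMP 1 (-1.03) or CMP 2 (-1.06). Ly6d was listed at 0 in 14 of the 19 leukaemias. Spib was below 1 FPKM in 17 of the 19 and was called in none of the 3 comparisons.

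In counts, MPP:MA9 against MPP called 1 member higher and 3 lower of 10 (27.1% of all genes called), CMP:MA9 against CMP 1 higher and 1 lower (27.8%), and GMP:MA9 against GMP 5 higher and 1 lower (22.4%). The members' median change was -0.45, -0.07 and 0.99, beside -0.09, -0.16 and 0.00 for all genes. Nothing is read from these counts or medians, because these leukaemias were the other side of the contrast that helped to choose the members. Scaling by median ratios moved the median of all genes by 0.15 in the CMP comparison and changed the split of all called genes there from 1641 higher and 1867 lower to 1923 and 1436. With GMP as the normal cell, 5 of 6 tested monocyte markers and 3 of 5 classical dendritic markers also rose, and their part in the rise of Tcf4 was not tested.

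**Figure D2:**
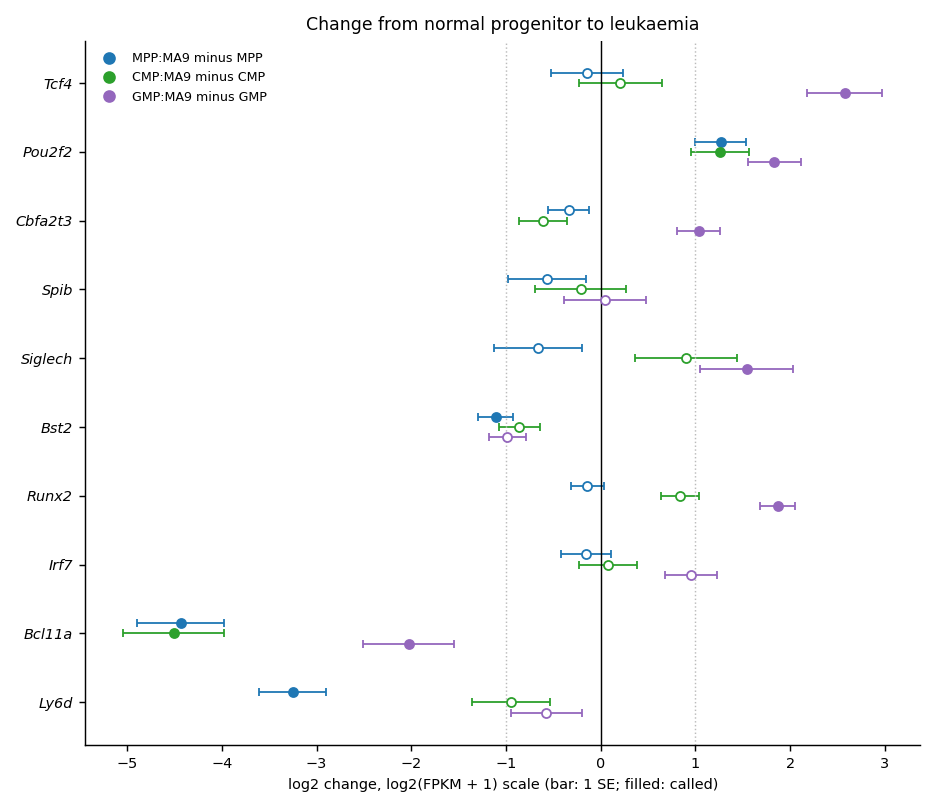
Change of each gene from the normal cell to the leukaemia that began in it, as a difference of log2(FPKM + 1) (horizontal axis) with bars of 1 SE, for the MPP, CMP and GMP origins. Filled points passed the test, and dotted lines mark a change of 1. Bcl11a falls in all 3 origins and Tcf4 rises by 2.58 in GMP:MA9.

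Genes of the wider pathway are given as counts, to be read against the 27.1%, 27.8% and 22.4% of all genes called in the MPP, CMP and GMP comparisons. Among 19 genes from endosomal Toll-like receptors to interferon, 7 rose in MPP:MA9, 8 in CMP:MA9 and 5 in GMP:MA9, and none fell. They included Tlr9, the receptor for unmethylated DNA, which rose by 3.40 from MPP and 2.72 from GMP, and Irf5, an interferon regulatory factor of myeloid cells, which rose by 3.31, 3.30 and 3.22 from MPP, CMP and GMP. Of 17 interferon-induced genes tested, 11 fell and 1 rose in MPP:MA9 (median -1.41), 11 fell and 1 rose in CMP:MA9 (median -1.15), and 1 fell and 3 rose in GMP:MA9 (median -0.10). Ifi44, an interferon-induced gene, fell by -3.86 from MPP.

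Of the 19 other pDC regulators tested, 9 rose and 2 fell from MPP, 7 rose and 2 fell from CMP, and 5 rose with none falling from GMP. Nfil3, a leucine zipper factor of innate lineages, rose by 2.22 from MPP. Among the 14 E protein, ETO and ID genes tested, Id2, an inhibitor of E proteins that opposes the pDC fate, rose by 3.85, 3.71 and 3.14 in the 3 origins, and Tal1, a helix-loop-helix factor of blood stem cells, fell by -4.50, -5.23 and -2.83. In that list 2 genes rose and 4 fell from MPP, 2 and 4 from CMP, and 1 and 1 from GMP. The pDC surface and effector genes rose in 7, 7 and 6 of 15 cases and fell in 3, 2 and 3.

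Of 11 FLT3 and cytokine receptor genes, 4 rose and 3 fell from MPP, 3 and 2 from CMP, and 4 and 1 from GMP, beside the same shares over all genes. Flt3 rose by 3.16 from GMP, and Kit, the stem cell factor receptor, fell by -5.82 from MPP and -4.17 from GMP. MHC class II genes were called in 1 rising and 3 falling of 9 cases from MPP, 1 and 1 from CMP, and 4 and 0 from GMP, where Cd74, the invariant chain, rose by 3.02. The members' family relatives rose in 12, 8 and 6 and fell in 3, 2 and 3 of 27 cases.

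Leukaemias of 1 origin differed widely in Tcf4, which allowed a question that the choice of members did not fix: which of the other genes varied with it after each origin's mean was removed. Over the 16 leukaemias of MPP, CMP and GMP origin, Siglech and Bcl11a varied with Tcf4 most closely. Siglech had Pearson's r = 0.70 (permutation p = 0.001) and Spearman's rho = 0.66 (permutation p = 0.0145), and Bcl11a r = 0.68 (permutation p = 0.0058) and rho = 0.74 (permutation p = 0.0049). Without the leukaemias farthest from the median in Tcf4, MPP:MA9 4 and GMP:MA9 5, r was 0.60 for Siglech and 0.71 for Bcl11a (n = 14).

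Spib had r = 0.50 (permutation p = 0.0122) but rho = 0.39 (permutation p = 0.137), and r fell to 0.33 without those leukaemias, so the relation rested on them. Its highest value, 5.10 FPKM in GMP:MA9 5, belonged to the leukaemia with the highest Tcf4. Leaving out GMP:MA9 5 or GMP:MA9 4 alone gave r = 0.43 and 0.46, past the threshold no more. Cbfa2t3 had r = 0.54 (permutation p = 0.0587) and rho = 0.61 (permutation p = 0.0325), with r = 0.44 without the 2 leukaemias, and passed the threshold without MPP:MA9 2 or MPP:MA9 6 (r = 0.67 and 0.67). Irf7 (r = 0.28), Pou2f2 (0.26), Runx2 (0.23), Bst2 (0.13) and Ly6d (0.08) did not pass (permutation p = 0.302, 0.351, 0.353, 0.672 and 0.905).

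Within single origins, r with Tcf4 was 0.88 in MPP:MA9 and 0.72 in GMP:MA9 for Siglech (n = 6 each), with rho = 0.60 in both. In MPP:MA9, Siglech read 2.28 FPKM in MPP:MA9 4 and 0.03 to 0.47 in the rest. For Bcl11a r was 0.40 and 0.87, and for Cbfa2t3 0.27 and 0.80. For Runx2 it was 0.56 and 0.71, for Spib 0.51 and 0.59, for Irf7 0.09 and 0.17 and for Bst2 0.01 and 0.11. Pou2f2 (-0.33 and 0.51) and Ly6d (-0.69 and 0.48) had opposite signs in MPP:MA9 and GMP:MA9. CMP:MA9, with 4 samples, was too small for its own value. In all, 14 relations with Tcf4 were computed, 9 with members and 5 with marker sums or depth. These p are not adjusted, and in the limma test adjusted over all 12135 genes none of the 7 members tested passed (adjusted p = 0.152 for Siglech, 0.159 for Bcl11a and 0.292 for Cbfa2t3). That test called 0.033% of all genes, 4 in number, all falling as Tcf4 rose, and 1625 had an unadjusted p under 0.05.

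Among all genes, 0.593% had a higher r with Tcf4 than Siglech and 0.750% a higher r than Bcl11a. The 5 most alike by r were Tpcn1 (0.85), Arhgap6 (0.85), Map3k1 (0.84), Olfr1029 (0.82) and Slc27a1 (0.82). Genes of the related lists with high r were Flt3 (0.77), Nfil3 (0.77) and Tlr9 (0.69). The neutrophil elastase gene Elane had r = -0.75.

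Cell type markers moved with Tcf4 in the same leukaemias. The summed classical dendritic markers had r = 0.84 (permutation p = 5.4e-04), rho = 0.78 (permutation p = 0.00218) and r = 0.73 without the 2 farthest leukaemias. Among the genes of this sum, r was 0.77 for Flt3, 0.54 for Cd209a, 0.42 for Clec9a and 0.38 for Itgax. The summed granulocyte markers had r = -0.62 (permutation p = 0.0189) and rho = -0.62 (permutation p = 0.0167). Without the 2 farthest leukaemias r weakened to -0.37, and rho was not recomputed. The monocyte sum had r = 0.54 (permutation p = 0.0282), the B cell sum r = -0.002 (permutation p = 0.995) and relative depth r = 0.19 (permutation p = 0.558). Without the 2 farthest leukaemias these r were 0.62, -0.43 and -0.06. The part of these markers in the relation of Tcf4 with Siglech and Bcl11a was not tested.

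**Figure D3:**
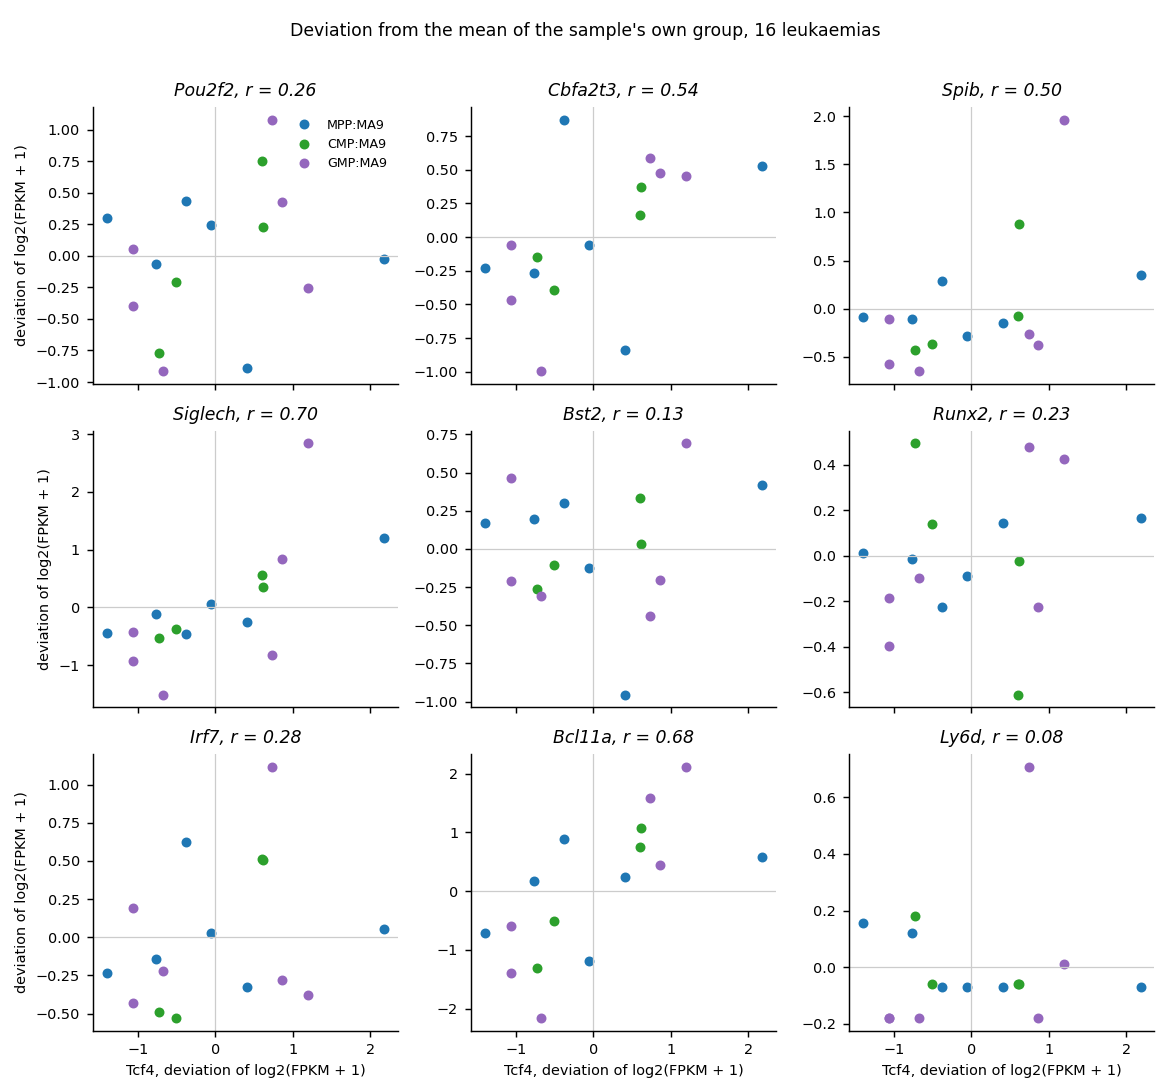
Deviation of the other 9 members from their origin's mean (vertical axes, log2(FPKM + 1)) against that of Tcf4 (horizontal axis, same scale), with 1 point per leukaemia of MPP, CMP or GMP origin (16 points). The points of Siglech and Bcl11a rise with Tcf4 (r = 0.70 and 0.68), whereas those of Ly6d do not (r = 0.08).

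**Figure D4:**
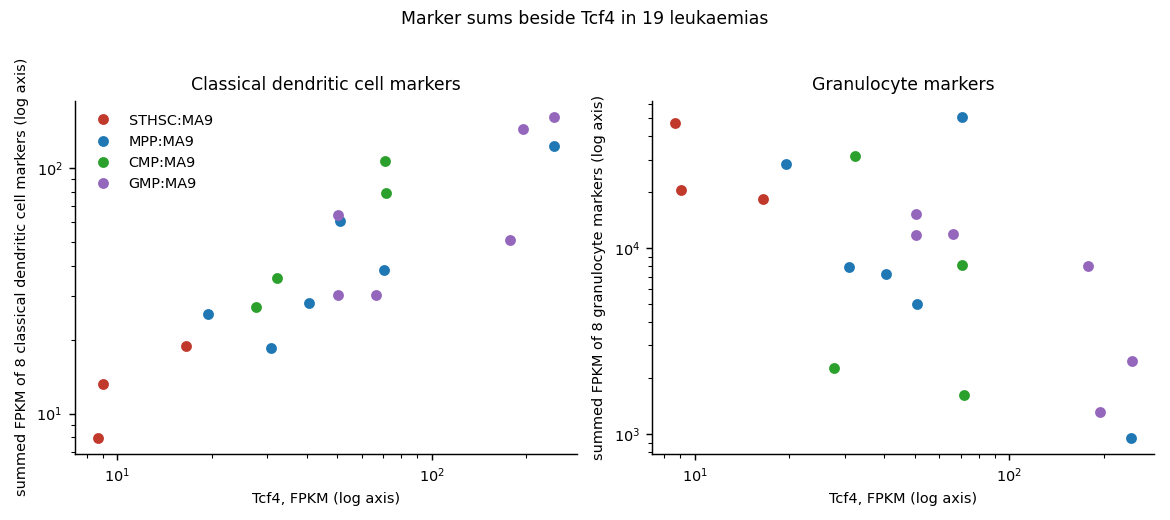
Summed FPKM of 8 classical dendritic cell markers and of 8 granulocyte markers (vertical axes, log scale) against Tcf4 FPKM (horizontal axis, log scale), with 1 point per leukaemia, 19 in all, coloured by origin. Leukaemias with more Tcf4 have a higher classical dendritic sum, which Cd209a and Flt3 mainly carry, and the 3 STHSC:MA9 samples lie at the low end of Tcf4.

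E proteins bind E-boxes, so the start regions of the genes that varied most closely with Tcf4 are shown, from 250 bases before to 50 after the start of the transcript, with each E-box (CANNTG, which reads the same pattern on both strands) in capitals. The sequences are from RefSeq (GRCm38.p6), run 5′ to 3′ on the gene's strand, and lie at chr7:55767934-55768233 for Siglech, chr11:24080445-24080744 for Bcl11a, and chr8:122699060-122699359 and chr8:122678126-122678425 for 2 starts of Cbfa2t3.
Siglech: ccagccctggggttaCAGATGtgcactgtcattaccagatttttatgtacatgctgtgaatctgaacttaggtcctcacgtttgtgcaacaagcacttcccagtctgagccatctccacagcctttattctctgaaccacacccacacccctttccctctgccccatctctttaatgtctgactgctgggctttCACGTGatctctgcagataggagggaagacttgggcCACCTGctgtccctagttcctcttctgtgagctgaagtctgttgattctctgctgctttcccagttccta
Bcl11a: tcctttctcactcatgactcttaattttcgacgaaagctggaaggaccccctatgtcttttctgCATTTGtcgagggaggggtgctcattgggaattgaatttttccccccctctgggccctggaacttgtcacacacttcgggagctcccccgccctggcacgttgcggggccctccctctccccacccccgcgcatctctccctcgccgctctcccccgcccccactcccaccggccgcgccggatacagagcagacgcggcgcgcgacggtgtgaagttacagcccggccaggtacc
Cbfa2t3 first start: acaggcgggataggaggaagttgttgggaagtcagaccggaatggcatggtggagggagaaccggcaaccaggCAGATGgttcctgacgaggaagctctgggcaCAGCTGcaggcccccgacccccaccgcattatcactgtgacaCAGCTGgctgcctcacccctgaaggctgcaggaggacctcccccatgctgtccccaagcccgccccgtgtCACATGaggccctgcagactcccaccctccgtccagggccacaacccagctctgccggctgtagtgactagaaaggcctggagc
Cbfa2t3 second start: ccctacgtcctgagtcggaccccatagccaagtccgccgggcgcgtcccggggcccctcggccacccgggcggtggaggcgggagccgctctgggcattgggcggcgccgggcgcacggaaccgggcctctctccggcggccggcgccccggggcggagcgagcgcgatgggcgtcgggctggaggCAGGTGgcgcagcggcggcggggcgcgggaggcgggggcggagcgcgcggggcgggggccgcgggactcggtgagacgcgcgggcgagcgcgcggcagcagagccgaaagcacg

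Siglech held 3 E-boxes, which began at -235, -56 and -20 relative to the start, Bcl11a held 1, and the Cbfa2t3 windows held 4 and 1. All 9 windows of the 8 members with a RefSeq window held at least 1, but so did 72.3% of 32851 promoters of all genes. CAGGTG was present in 20.2% of all promoters, CAGCTG in 16.3%, the runt motif TGTGGT in 16.8% and the octamer ATGCAAAT in 1.74% (each on either strand). The octamer was in no member's window, and TGTGGT was in those of Pou2f2, Siglech and Runx2. Windows for Tcf4 and Ly6d were not used here.

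In normal cells the members were compared step by step along the hierarchy. Across the 6 normal groups 9 of the 10 genes differed, all but Spib, as did 78.4% of all genes. Without the libraries that stood apart Siglech and Spib were below the filter and were not tested, and the other 8 were called. The steepest step was from CMP to GMP, where 5 of 10 members were lower in GMP. Tcf4 was highest in MPP, at 53.2, 62.4, 57.0, 58.4, 56.7 and 65.3 FPKM.

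From CMP to GMP, Tcf4 fell from 38.7, 45.6, 40.4, 39.3 and 36.2 FPKM to the GMP values given above, with no overlap. The change, CMP minus GMP, was 1.19 (SE 0.13, adjusted p = 3.6e-08), and with median-ratio scaling 0.96, under the fold threshold. Cbfa2t3 read 30.5, 32.4, 25.2, 37.5 and 39.7 in CMP and 10.7, 9.84, 10.8, 9.93 and 9.27 in GMP, a change of 1.60 (SE 0.13, adjusted p = 1.6e-10). Both genes were lower in every GMP sample than in every CMP sample.

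Bcl11a was higher in CMP than in GMP by 1.87 (adjusted p = 1.7e-08), Runx2 by 1.26 (adjusted p = 1.7e-04) and Irf7 by 1.26 (adjusted p = 6.4e-04). The 5 called members compare with 11.2% of all genes called. Pou2f2 changed by 0.96 and was called without CMP 3, CMP 5 or GMP 5 (1.10, 1.04 and 1.06). The median of all genes was itself 0.20 higher in CMP, which median-ratio scaling moved by -0.19, and the split of all called genes went from 982 higher and 409 lower to 655 and 589. With the GC and length correction 2 members, Cbfa2t3 and Bcl11a, were called.

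From CMP to MEP, 2 members fell where 11.8% of all genes were called. Pou2f2 was higher in CMP by 2.06 (SE 0.28, adjusted p = 2.2e-06), with 0.61 to 1.78 FPKM in MEP. Runx2 was higher by 2.92 (SE 0.26, adjusted p = 1.4e-09), with 4.13 to 6.69 in MEP and 30.9 to 57.0 in CMP. Median-ratio scaling moved the median of all genes by -0.14 here and the split from 1174 higher and 290 lower to 935 and 408.

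From ST-HSC to MPP, Pou2f2 rose by 1.34 on the log2 scale (ST-HSC minus MPP -1.34, SE 0.26, adjusted p = 5.4e-04) and Runx2 by 1.01 (-1.01, SE 0.23, adjusted p = 0.0032), 2 of 10 members against 3.44% of all genes. Runx2 fell short of the fold threshold without MPP 2, 3 or 4 or ST-HSC 1 or 4 (-0.99 to -0.90), and without the libraries that stood apart (-0.90). Irf7 was called without those libraries (-1.38), and without ST-HSC 4 (-1.13) or ST-HSC 5 (-1.01) alone. The split of all called genes was 162 higher and 263 lower, or 204 and 171 with median-ratio scaling, which moved the median of all genes by 0.10. From MPP to CMP, Ly6d alone was called (MPP minus CMP 2.31, SE 0.69, adjusted p = 0.0226), against 4.32% of all genes. Without CMP 5 or MPP 3 its adjusted p was 0.0533 and 0.0620, and Irf7 was called without CMP 5 or MPP 3, 4 or 6 (1.00 to 1.05).

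LT-HSC against ST-HSC called no member in limma with or without the replicate block (2.26% of all genes). Irf7 came nearest, 0.97 higher in LT-HSC (adjusted p = 0.0246), and it was called without the libraries that stood apart (1.26, adjusted p = 0.00154), as it was without LT-HSC 1, 3 or 5 or ST-HSC 4 or 5 (1.03 to 1.21). Median-ratio scaling moved the median of all genes by 0.12 and the split from 95 higher and 185 lower to 138 and 113. In LT-HSC 4 and 5, Ly6d read 39.0 and 19.2 FPKM, Spib 27.2 and 13.3 and Siglech 8.51 and 2.36, where the other LT-HSC samples had at most 2.38, 1.40 and 0.87. ST-HSC against the mean of MPP, CMP and GMP also called no member (3.78% of all genes), although Pou2f2 was called without the libraries that stood apart (-1.08) and Siglech without ST-HSC 2 (1.25).

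Among related genes, Flt3 was lower in ST-HSC than in MPP by -2.60 and higher in CMP than in GMP by 3.37. Irf8, an interferon regulatory factor of dendritic and monocyte precursors, was lower in ST-HSC than in MPP by -1.33. Tcf3 was higher in CMP than in GMP by 1.71. Of 18 interferon-induced genes tested, 7 were higher in MPP than in CMP and 5 higher in CMP than in GMP, with none lower at either step, and of 16 pDC surface and effector genes 6 were lower in ST-HSC than in MPP. From CMP to GMP 4 of 18 other pDC regulators were higher in CMP and 2 lower, as were 5 and 1 of 14 E protein, ETO and ID genes and 5 and 0 of 9 MHC class II genes.

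**Figure D5:**
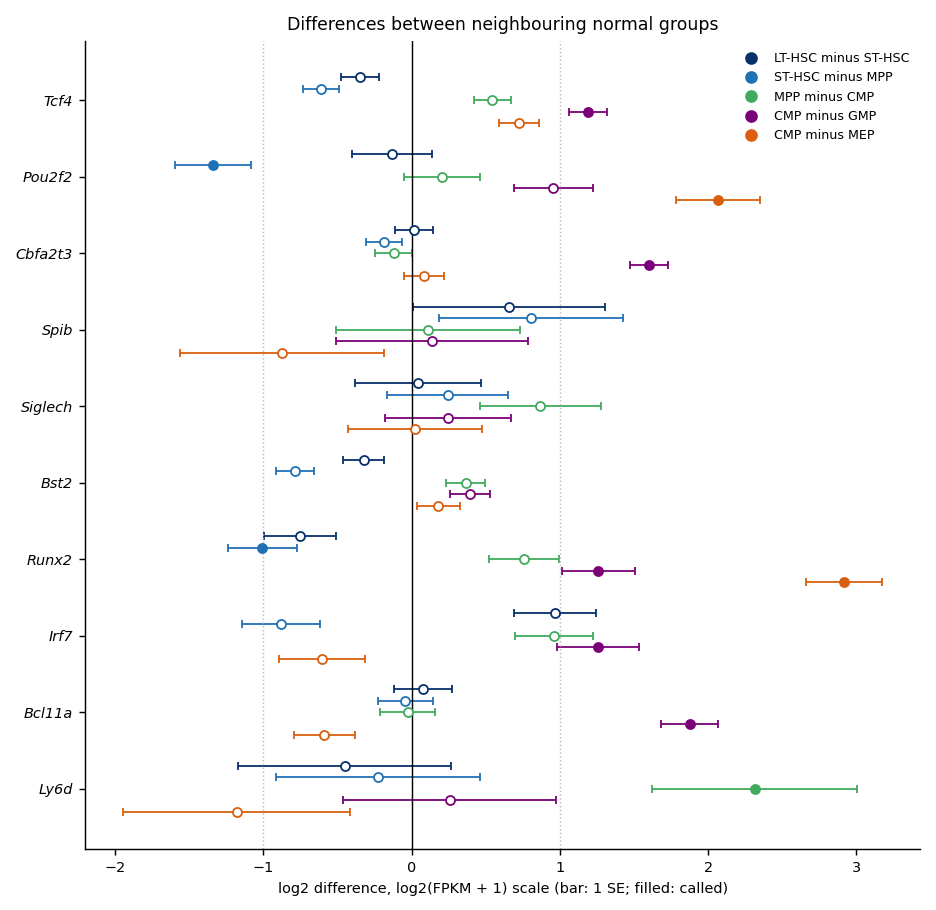
Change of each gene at the steps of the normal hierarchy, as a difference of log2(FPKM + 1) between neighbouring populations (horizontal axis) with bars of 1 SE. Filled points passed the test, and dotted lines mark a change of 1. The step from CMP to GMP has 5 members past the test and that from LT-HSC to ST-HSC has none.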

How the data were processed

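Per the study's methods and the labels, RNA of sorted cells was amplified to cDNA and sequenced, and the authors deposited gene-level FPKM, made with RSEM against mm9 according to the submitters' processing notes. The deposited FPKM values have 2 decimals, replicates were not pooled, and the counting strand is not given in the sources used here. Of the 68 columns of the table, 19 matched no sample label and were not used. The 10 genes and all related lists were chosen with earlier results of these data known.

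Values were taken as log2(FPKM + 1). Separate limma fits (3.58.1, R 4.3.3, with a mean-variance trend) covered the 19 leukaemias, the 19 leukaemias with ST-HSC, MPP, CMP and GMP, and the 30 normal samples, each on genes averaging 1 FPKM or more over the fit, with p-values adjusted over all genes tested (Benjamini-Hochberg). A call needed an adjusted p under 0.05 and a change above 1 on the log2 scale in either direction, and for the tests over several groups or of covariation the adjusted p alone. Covariation with Tcf4 was computed on deviations from group means with permutation tests (100000 resamples, 2-sided, labels permuted within origin). These p-values were to be adjusted over the members, but as the members were chosen with results known they are given unadjusted, beside the limma test over all genes. Scripts were tested on simulated data.

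Genes named beyond the members were those with the largest called change in each related list, and for likeness to Tcf4 the 5 genes with the highest r. Markers and list genes in the text without a call are named for a contrast with a member and were chosen after their values were seen. Positions are from GENCODE (NCBIM37) and promoter windows from RefSeq. Replicate numbers were checked for pairing: only between LT-HSC and ST-HSC did every same-numbered pair correlate above the threshold of 0.1 in its deviations (r from 0.142 to 0.683 over 5 pairs), and there the replicate block left the members' count at 0. Alternatives covered the pseudocount (0.1), no filter on low values, no fold threshold, scaling by median ratios, a GC and length correction (splines with 5 degrees of freedom), the replicate block, a spread from the compared groups only, and each sample left out. The tests without the 6 libraries that stood apart, the unfiltered fit without GMP:MA9 5 and the limma test of covariation were added after seeing the data. The precision is set by the number of samples, and depth is known only relative to the other samples (98.7% of 1145 sample pairs within 0.15 on the log2 scale). Analyses used Python 3.11.15 (numpy 2.4.6, pandas 2.3.3, scipy 1.17.1, matplotlib 3.10.9). Some items are not reported here.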

Additional observations from a re-analysis of the deposited data

Results flagged for a closer look

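In 5 of 90 sets, each 1 member in 1 group of 4 to 6 samples, the member's highest or lowest sample lay apart from the rest by Dixon's 95% criterion, where chance gives about 1 in 20. Pou2f2 read 12.3 FPKM in MPP:MA9 2, and 22.7 to 32.3 in the other MPP:MA9 leukaemias. Siglech read 2.28 in MPP:MA9 4, the MPP leukaemia with the most Tcf4, and 0.03 to 0.47 in the rest of that group. Spib read 5.10 in GMP:MA9 5, the GMP leukaemia with the most Tcf4, and 0 to 0.46 in the others. Ly6d read 0.85 in GMP:MA9 2, where the other GMP:MA9 leukaemias had 0 to 0.14, and 0.18 in CMP:MA9 4, where the others were listed at 0.

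In limma's test of the difference itself, 6 members changed unequally on transformation in the MPP, CMP and GMP origins. The adjusted p was 4.95e-07 for Runx2, 1.79e-04 for Ly6d, 3.04e-04 for Cbfa2t3, 3.88e-04 for Tcf4, 0.00578 for Bcl11a and 0.0272 for Siglech. With a pseudocount of 0.1 Bcl11a was no longer called (adjusted p = 0.116) and Irf7 was called (adjusted p = 0.0282). Ly6d was at most 0.85 FPKM in these leukaemias, and averaged 10.5 in MPP, 1.07 in CMP and 0.81 in GMP.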

How the results depend on the processing

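Of 2247 recomputed changes of single members, 33 lost and 77 gained a call, and none changed sign while called. Counts of called members stayed within 1.5 times the reported one in 300 of 341 recomputations. By setting, the counts that moved were these. With no fold threshold, CMP:MA9 against CMP went from 2 to 6 members, LT-HSC against ST-HSC from 0 to 2, ST-HSC against MPP from 2 to 5, MPP against CMP from 1 to 4, CMP against MEP from 2 to 4, and ST-HSC against the mean of MPP, CMP and GMP from 0 to 3. With the GC and length correction, with or without the replicate block, MPP:MA9 against GMP:MA9 went from 1 to 0, ST-HSC against MPP from 2 to 0, CMP against GMP from 5 to 2 and LT-HSC against ST-HSC from 0 to 1. With a pseudocount of 0.1 LT-HSC against ST-HSC and ST-HSC against that mean had 1 and MPP against CMP 2, and with median-ratio scaling LT-HSC against ST-HSC and ST-HSC against MPP had 1. ST-HSC against the mean also had 1 with the spread of the compared groups only and, like LT-HSC against ST-HSC, without the 6 libraries that stood apart. Median-ratio scaling also moved the split of all called genes in MPP:MA9 against GMP:MA9 from 169 higher and 101 lower to 119 and 112. The 3 members whose r with Tcf4 had a permutation p under 0.05 went to 0 in the limma test over all genes, and in that test the number of all genes called ran from 0 to 53 over the alternatives (53 without MPP:MA9 2).

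Under the replicate block, with or without the GC and length correction, MPP against CMP went from 1 to 2 members and ST-HSC against the mean from 0 to 1, and the 6 normal groups differed in 10 members where 9 had been called. The block alone brought Cbfa2t3 in GMP:MA9 against GMP to 0.98, under the fold threshold, and Ly6d in ST-HSC against the mean to 1.43 (adjusted p = 0.0289). Outside LT-HSC and ST-HSC, same-numbered samples correlated at -0.374 to 0.290 in their deviations. In CMP and GMP all 5 pairs correlated positively, at 0.048 to 0.290, and each correlated best with its own number. The main fit did not pair them, and what they shared was not tested.

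Leaving out 1 of 46 samples at a time gave 0 to 0 called members for MPP:MA9 against CMP:MA9 and for CMP:MA9 against GMP:MA9, 0 to 2 for MPP:MA9 against GMP:MA9, 3 to 4 for MPP:MA9 against MPP, 2 to 3 for CMP:MA9 against CMP, 5 to 8 for GMP:MA9 against GMP, 5 to 7 for the difference among origins, 0 to 1 for LT-HSC against ST-HSC and for ST-HSC against the mean, 1 to 3 for ST-HSC against MPP, 1 to 2 for MPP against CMP, 5 to 6 for CMP against GMP, 2 to 2 for CMP against MEP, 8 to 10 for the 6 normal groups and 2 to 4 for covariation with Tcf4. With each of the 3 STHSC:MA9 samples left out in turn, 3 to 4 members lay below all 16 others. The cause of these moves was not tested. Members below 1 FPKM in most samples, Spib and Ly6d among them, are limited by depth.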
